A study of Mus musculus with 186 samples.

Results

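The comparison described here is that of inner cells from mouse embryos grown for 24 hours with LY294002 (LY) against inner cells from embryos grown for 24 hours with DMSO. Its members are the cells whose stage label names a culture of 24 hours begun at E2.75 (days after mating), and there are 52 of them among the 170 cells of the deposited table. LY contributed 24 cells and DMSO 28. LY was given at 10 µM, and DMSO, its solvent, is the control. All embryos were CD-1 mice and were grown in KSOM, a medium for early embryos, from the morula stage. The zona pellucida was taken off before immunosurgery, a treatment that kills the outer cells and leaves the inner cells to be picked singly. The cells of an arm came from 3 collection dates, each pooling several litters, and both arms share the same 3 dates. The date is the replicate throughout. LY cells numbered 7, 12 and 5 on dates 1, 2 and 3, and DMSO cells numbered 6, 11 and 11. A pair of other groups is used for reference: embryos grown for 16 hours from the same stage with LY (31 cells) or DMSO (31 cells) on 3 other dates, and fresh embryos at E4.0 (14 cells) and E3.25 (20 cells) on 2 dates each. Fresh embryos at E3.75 (15 and 7 cells on 2 dates) entered only the gene filter and the model fitted to all groups. The embryo that each cell came from is not given.

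LY294002 blocks phosphoinositide 3-kinase (PI3K), which makes a membrane lipid that recruits and activates the kinase AKT; at the doses used in culture the compound also reaches related kinases such as mTOR. AKT holds the FOXO transcription factors out of the nucleus, and with mTOR it promotes protein synthesis, the lipid synthesis programme of the SREBP factors and, through ATF4, the synthesis and uptake of amino acids. The inner cell mass gives rise to epiblast, which forms the embryo and depends on NANOG and SOX2, and to primitive endoderm, which lines the yolk sac and depends on GATA6. The study's title places its question in the specification of these progenitors by PI3K and AKT.

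Pou5f1, a pluripotency factor of all early inner cells, reached a TPM of 10 in 24 of 24 LY cells and 28 of 28 DMSO cells, and Sall4, a partner of it, in 17 of 24 LY and 22 of 28 DMSO cells. Tspan8, a trophectoderm marker, reached 10 in 0 of 24 LY cells and 0 of 28 DMSO cells (counts of 0 that still permit shares as high as 12.5% and 10.7%). Gata3 did so in 1 of 24 LY and 0 of 28 DMSO cells, Eomes in 2 of 24 and 2 of 28, and Cdx2 in 2 of 24 and 1 of 28. The keratin genes Krt8 and Krt18, which outer cells express strongly, were found more widely. Krt8 reached 10 in 19 of 24 LY and 25 of 28 DMSO cells, and Krt18 in 15 of 24 LY and 24 of 28 DMSO cells. The summed TPM of the 24 trophectoderm genes in the table ranged from 105 to 1347 over LY cells and from 55.6 to 1261 over DMSO cells.

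Fewer genes were detected in LY cells on every date. A mean of 4556, 6389 and 5373 genes per cell had a TPM of 1 or more with LY on dates 1, 2 and 3, against 5726, 6668 and 6969 with DMSO. The mean over dates was 5439 ± 918 genes with LY and 6454 ± 648 with DMSO (SD, n = 3 dates each; exact two-sided permutation p = 0.2, where 0.1 is the smallest that 3 against 3 can give). The LY cells of date 1 were the poorest, with 3806 to 5155 genes each. Mitochondrially encoded RNA made up 4.18%, 5.41% and 7.63% of TPM with LY on dates 1, 2 and 3, against 1.55%, 9.17% and 9.10% with DMSO (exact permutation p = 0.8). Read depth cannot be recovered from TPM and is unknown. Across genes, the median difference of LY minus DMSO was -0.20 on the log2(TPM + 1) scale, and 67.2% of genes lay below 0. The difference in detected genes runs alongside every comparison below. With detected genes as a covariate the median of all genes was 0.04. For lists whose median is stated below, the median under this covariate is given where it differs by over 1.5 times. For lists with medians near 0 it was 0.27 (PI3K, AKT and mTOR components), 0.28 (FOXO factors and targets) and 0.38 (p53 targets). It was 0.12 for lysosome and autophagy genes, 0.41 for trophectoderm genes and 0.37 for mitochondrially encoded genes. The median of all genes was -0.17, 0.00 and -0.39 on dates 1, 2 and 3. The difference of LY minus DMSO in detected genes per cell was -1291 within sequencing run 1 and -969 within run 2. Run 1 held only 1 LY and 2 DMSO cells of date 3, which limits every comparison within that run.

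**Figure D1:**
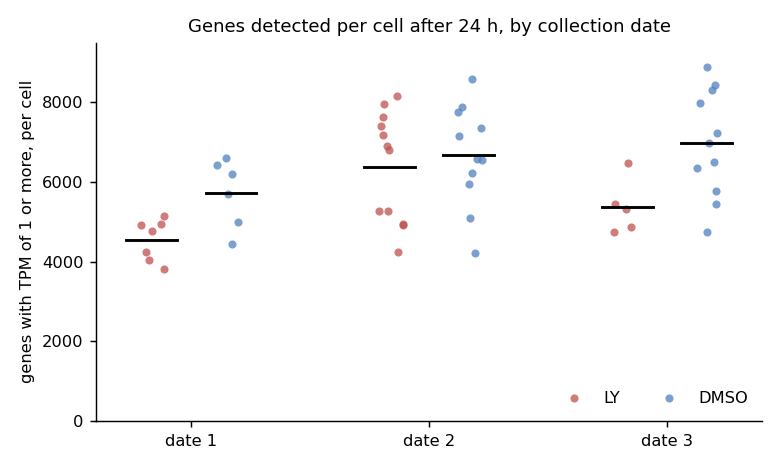
Genes with a TPM of 1 or more in each cell (vertical axis) by collection date, with LY in red left of DMSO in blue; each point is a cell and each bar the mean of its date. The LY mean lies below the DMSO mean on all 3 dates, 4556 against 5726, 6389 against 6668 and 5373 against 6969.

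No single gene passed the test between LY and DMSO at 24 hours. Of 11692 genes tested with limma on the experiment means, 0 (0%) had a Benjamini-Hochberg adjusted p under 0.05, and the smallest adjusted p was 0.291. With the date as a replicate block, 0 genes passed as well (smallest adjusted p = 0.417 in limma). Within sequencing run 1 and within run 2, 0 genes passed in limma (smallest adjusted p = 0.370 and 0.138). At an unadjusted p under 0.05 there were 638 genes, of which 552 were lower and 86 higher with LY. This split turned with the scaling: after quantile normalization 479 of 866 such genes were higher, and with the number of detected genes as a covariate 410 of 682 were higher. The values that follow are therefore descriptions of direction and size, and none of the genes named for LY passed the threshold. In the same model 184 genes (1.57%) separated fresh E4.0 from E3.25 cells, which were represented by 2 dates each.

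A pair of plain measures describes how steady a gene was over dates: whether LY lay below DMSO on each of the 3 dates, and whether all 3 LY means lay below all 3 DMSO means, so that the arms did not overlap. Of all genes tested, 22.4% were lower and 6.33% higher with LY on every date. The arms did not overlap for 8.64% of genes with LY below and for 2.26% with LY above.

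The genes that cells switch on when amino acids are short, many of them targets of the transcription factor ATF4, were among the lists farthest below the median of all genes. Of the 22 genes on this list, 19 passed the low-value filter, and the other 3, Cebpb, Slc7a11 and Vldlr, did not. None passed the test, 16 of 19 were lower with LY, and the median difference was -0.76, against -0.20 for all genes. The median was -0.60, -0.80 and -1.35 on dates 1, 2 and 3. It was -0.42 with detected genes as a covariate and -0.49 without date 3. LY was lower on every date for 8 of 19 genes (42.1%, beside 22.4% of all genes), and the arms did not overlap, with LY below, for 7 of 19 (36.8%, beside 8.64%).

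Short promoter stretches of 6 genes are shown because these are the tested list members that hold the letters TGATGNAA, the C/EBP-ATF composite element that ATF4 is known to bind, on either strand. The capitals mark the element, and sequences and positions are from RefSeq (GRCm38.p6), read 5′ to 3′ on the gene's own strand.
Asns: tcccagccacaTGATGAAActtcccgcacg
Nupr1: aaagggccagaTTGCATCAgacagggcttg
Trib3: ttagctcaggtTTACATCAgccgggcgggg
Chac1: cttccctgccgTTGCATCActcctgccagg
Pck2: agccttcaaagTTACATCAgtatcttacag
Atf3: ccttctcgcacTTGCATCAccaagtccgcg
They lie at chr6:7693214-7693243 (minus strand), chr7:126625562-126625591 (minus), chr2:152344028-152344057 (minus), chr2:119351038-119351067 (plus), chr14:55540152-55540181 (plus) and chr1:191183425-191183454 (minus). In windows from 250 bases before to 50 after the start, the element was found for 8 of the 20 list genes with a RefSeq promoter and for 4.51% of all 27025 genes with one. The match is a description of letters and not a measurement of binding, and no other motif was searched.

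Asns, the enzyme that makes asparagine, had experiment means of 1.82, 2.09 and 1.91 log2(TPM + 1) with LY, against 2.87, 5.12 and 4.72 with DMSO. On this log scale the LY means were low and close together, and all lay below the DMSO means. The difference was -2.30 ± 0.87 (SE; limma adjusted p = 0.876). A TPM of 10 was reached in 1 of 7, 4 of 12 and 1 of 5 LY cells on dates 1, 2 and 3, against 3 of 6, 8 of 11 and 7 of 11 DMSO cells. The mean TPM by date was 110, 8.04 and 21.7 with LY and 26.1, 63.5 and 70.6 with DMSO. On that scale LY was higher on date 1 and lower on dates 2 and 3. The mean TPM over all cells was 40.6 with LY and 58.3 with DMSO, and the median cell held 0.815 TPM with LY and 51.6 with DMSO. In the LY arm 1 cell of date 1 held 766 TPM. Asns lies on chromosome 6 from 7675169 to 7693254 (mm10, minus strand).

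Nupr1, a small stress-induced chromatin protein, had means of 1.14, 2.67 and 1.62 with LY and 3.51, 5.96 and 4.91 with DMSO. The arms did not overlap, and the difference was -2.98 ± 1.16 (limma adjusted p = 0.876). Trib3, a pseudokinase that binds AKT and feeds back on ATF4, had 1.33, 1.37 and 1.06 with LY and 4.19, 2.26 and 2.71 with DMSO. Here too every LY mean was below every DMSO mean. Psph, the last enzyme of serine synthesis, had 2.05, 3.03 and 1.88 with LY and 3.91, 4.40 and 3.39 with DMSO.

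Mthfd2, a mitochondrial enzyme of folate metabolism, and Slc7a5, a transporter of large neutral amino acids, showed the same lack of overlap with smaller gaps. Mthfd2 had 3.27, 2.63 and 2.05 with LY and 4.28, 3.5 and 3.42 with DMSO. Slc7a5 had 2.80, 2.83 and 2.42 with LY and 4.03, 3.44 and 3.19 with DMSO. The stress factor Atf3 was at 0 in the 3 LY means and between 0.08 and 0.80 in the DMSO means, with a TPM of 1 reached in 0 of 24 LY and 3 of 28 DMSO cells.

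Not every gene of the list was lower. Atf4 itself had 7.49, 8.28 and 5.23 with LY and 8.0, 7.72 and 8.08 with DMSO, so that date 2 was higher and date 3 far lower with LY. Ddit3, a death-promoting partner of ATF4, had 3.37, 2.85 and 0.00 with LY and 1.91, 1.07 and 1.35 with DMSO. Slc3a2, the shared chain of several amino acid transporters, had 8.02, 7.33 and 6.91 with LY and 7.04, 6.53 and 6.91 with DMSO. Shmt2, a serine-consuming enzyme, differed by 0.02. Chac1 and Pck2, both with the element shown above, had overlapping arms and differences of -0.33 and -0.76.

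**Figure D2:**
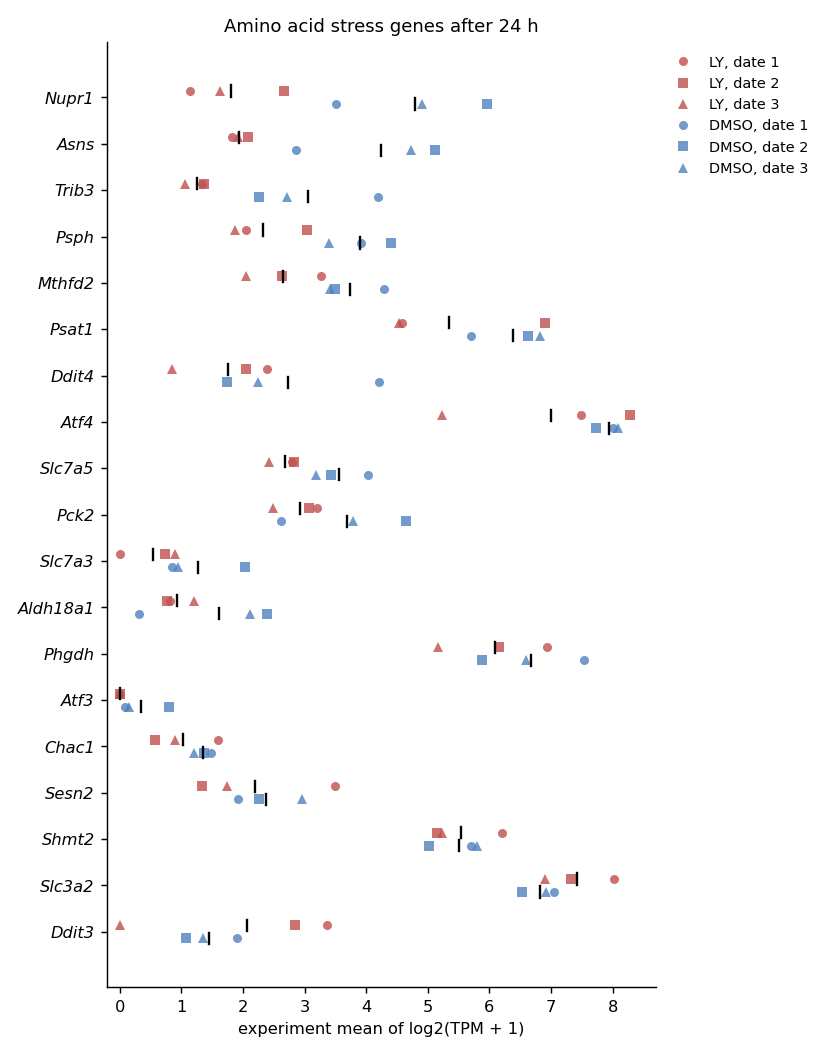
Experiment means of log2(TPM + 1) (horizontal axis) for the 19 tested amino acid stress genes, with LY in red above DMSO in blue, the symbol giving the date and the bar the mean of 3 dates. The arms do not overlap for 7 genes, among them Nupr1, Asns, Trib3 and Psph, while the mean of 3 dates is higher with LY for Ddit3, Slc3a2 and Shmt2.

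Among fatty acid synthesis genes, Scd1 was lower by a like amount on each date. Scd1, the desaturase that turns saturated into monounsaturated fatty acids, had means of 1.92, 3.14 and 3.08 with LY and 4.36, 5.13 and 5.64 with DMSO. All LY means were below all DMSO means, and the date by date differences of -2.44, -1.99 and -2.56 were close. The mean difference was -2.33 ± 0.85 (SE; limma adjusted p = 0.876, and adjusted p = 0.474 with the replicate block). A TPM of 10 was reached in 2 of 7, 5 of 12 and 2 of 5 LY cells, against 5 of 6, 10 of 11 and 11 of 11 DMSO cells. Pooled over dates that was 37.5% of LY cells (95% exact interval 18.8 to 59.4%) and 92.9% of DMSO cells (76.5 to 99.1%). These intervals cover counting error only. At 16 hours, on other dates, the difference of Scd1 was -2.25, and the 24 hour difference minus the 16 hour difference was -0.08 (limma adjusted p = 1). Scd1 lies on chromosome 19 from 44394455 to 44407879 (mm10, minus strand).

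Over the whole list, 14 of 17 fatty acid genes were lower with LY (82.4%, beside 67.2% of all genes, median -0.58). On every date 6 of 17 were lower (35.3%, beside 22.4%), and 2 of 17 without overlap (11.8%, beside 8.64%). The median was -0.18 both without the LY mean of date 1 and with detected genes as a covariate. It was -0.28 and -0.37 without the DMSO mean of date 2 or 3, and -1.10 without the LY mean of date 2. Scd2, the sister desaturase, had 1.09, 5.34 and 3.81 with LY and 4.90, 5.53 and 5.75 with DMSO, so the gap was wide on date 1 and narrow on date 2. Acss2, which makes acetyl-CoA from acetate, had 0.76, 0.34 and 0.26 with LY and 1.91, 1.89 and 1.39 with DMSO, with no overlap (-1.27 ± 0.44). Acaca, the carboxylase of the first committed step, differed by -1.12. Fasn, the synthase itself, had 1.91, 5.28 and 3.98 with LY and 2.80, 4.60 and 4.51 with DMSO, and its arms overlapped.

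Cholesterol genes were lower in 22 of 24 cases (median -0.46), but only 6 of 24 were lower on every date (25%, beside 22.4% of all genes). The list median was -0.68, -0.13 and -0.10 on dates 1, 2 and 3, and it was -0.12 without date 1, -0.08 without the LY mean of that date alone and 0.06 with detected genes as a covariate. Lss, which closes the sterol ring, had 0.91, 1.64 and 0.02 with LY and 3.43, 1.99 and 2.79 with DMSO. Insig1, which holds SREBP in the endoplasmic reticulum and is itself a target, had 1.07, 1.21 and 0.56 with LY and 1.63, 2.10 and 2.30 with DMSO. The arms did not overlap for either gene, and with LY below for 3 of 24 on the list (12.5%, beside 8.64% of all genes). Hmgcs1, an early enzyme of the pathway, differed by 0.00.

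Components of the PI3K, AKT and mTOR pathway lay slightly above the median of all genes. Of 28 tested, 12 were lower and the median difference was 0.10, which was below 0 under 5 of 27 alternative settings. Higher values on every date were seen for 4 of 28 (14.3%, beside 6.33% of all genes), and the arms did not overlap with LY above for 3 of 28 (10.7%, beside 2.26%). Rheb, the small GTPase that switches on mTOR, had 4.73, 4.83 and 4.35 with LY and 3.65, 2.83 and 3.89 with DMSO. Inppl1, a lipid phosphatase, had 0.81, 1.53 and 0.92 with LY and 0.79, 0.17 and 0.51 with DMSO, and Gsk3a, a kinase that AKT inhibits, had 4.08, 3.12 and 2.62 with LY and 1.99, 2.18 and 2.07 with DMSO. The 3 genes had no overlap between arms. Akt1, the main AKT kinase gene, and Pik3ca, a catalytic subunit of PI3K, differed by -0.13 and 0.15, both with overlapping arms.

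FOXO factors and their targets had a median of 0.10, below 0 under 2 of 27 settings. This list also holds Cdkn1a, described below with the p53 genes. Of 22 tested, 5 were higher on every date (22.7%, beside 6.33% of all genes) and 1 was lower (4.55%, beside 22.4%). LY lay above without overlap for 1 of 22 (4.55%, beside 2.26%). Foxo1 differed by 0.33 and Foxo3 by 0.35. Txnip, which binds thioredoxin and limits glucose uptake, had 2.00, 1.64 and 3.66 with LY and 0.89, 0.68 and 2.01 with DMSO, higher on each date although the arms overlapped. Irs2, a common target gene, and Dusp6, a feedback phosphatase of the ERK pathway, did not pass the low-value filter.

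Growth arrest genes under p53 had a median of 0.07, below 0 under 3 of 27 settings. On every date 6 of 20 were higher (30%, beside 6.33% of all genes) and 4 of 20 lower (20%, beside 22.4%). Cdkn1a, which encodes the cell cycle inhibitor p21, had 6.37, 2.59 and 3.40 with LY and 3.67, 2.01 and 1.88 with DMSO. A TPM of 10 was reached in 6 of 7, 5 of 12 and 3 of 5 LY cells, against 3 of 6, 2 of 11 and 3 of 11 DMSO cells. Phlda3, a p53 target that competes with AKT for membrane lipid, had 2.88, 1.92 and 1.16 with LY and 1.19, 0.79 and 0.28 with DMSO, a difference of 1.24 ± 0.42 (limma adjusted p = 0.876). Tigar, which lowers glycolytic flux, was lower instead, with 4.33, 5.39 and 5.57 with LY and 6.65, 5.93 and 6.31 with DMSO. From the separate BCL2 list, Bad, a death-promoting member that AKT phosphorylates, had 2.46, 3.98 and 3.27 with LY and 6.08, 4.29 and 4.84 with DMSO.

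Lysosome and autophagy genes were mixed (16 of 31 lower, median -0.04). Sqstm1, the cargo receptor p62, had 10.94, 8.93 and 9.05 with LY and 8.30, 7.99 and 7.80 with DMSO, all LY means above all DMSO means (1.61 ± 0.62; limma adjusted p = 0.876). Mcoln1, a calcium channel of the lysosome, had 0.81, 0.82 and 1.3 with LY and 3.89, 3.07 and 2.39 with DMSO. Becn1, a subunit of the lipid kinase complex that starts autophagy, differed by -1.51 and Lamp2, a lysosomal membrane protein, by 1.28.

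**Figure D3:**
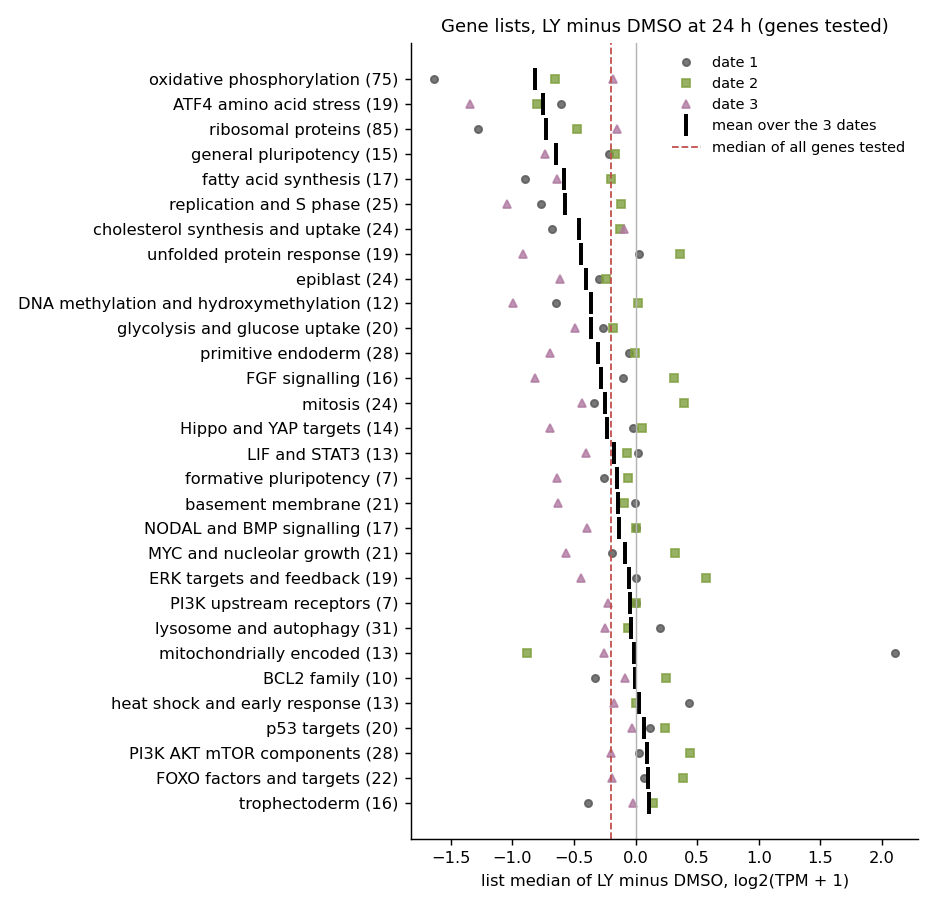
List median of LY minus DMSO on the log2(TPM + 1) scale (horizontal axis) for 30 gene lists (number of tested genes in brackets), with a symbol for each date and a bar for the difference of the 3-date means; the dashed line marks the median of all genes, -0.20. Amino acid stress genes lie below the line on all 3 dates, while ribosomal protein and oxidative phosphorylation genes are far below it on date 1 (-1.28 and -1.63) and just above it on date 3 (-0.15 and -0.18), when the median of all genes was -0.39.

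Genes of the protein synthesis and respiration machinery lay below the median of all genes on dates 1 and 2 and above it on date 3. Of 75 tested nuclear genes for oxidative phosphorylation, 60 were lower with LY (80%, beside 67.2% of all genes, median -0.82). On every date 28 of them were lower (37.3%, beside 22.4%). The list median was -1.63, -0.65 and -0.18 on dates 1, 2 and 3, against -0.17, 0.00 and -0.39 for all genes. It was -0.30 without date 1, -0.32 without the LY mean of that date and -0.40 with detected genes as a covariate. Of 85 cytosolic ribosomal protein genes, 72 were lower (84.7%, beside 67.2% of all genes, median -0.73) and 32 on every date (37.6%, beside 22.4%). The list medians were -1.28, -0.48 and -0.15 by date. Their median was -0.29 without date 1 and -0.16 without the LY mean of that date. Date 1 is the date whose LY cells had the fewest detected genes, with a mean of 4556. Many ribosomal protein genes have near-identical processed pseudogenes, so their values are uncertain.

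Atp5o, a stalk subunit of ATP synthase, had 3.53, 7.12 and 4.88 with LY and 8.99, 7.72 and 7.79 with DMSO. Its symbol has 2 entries in the gene annotation, so its value is uncertain. Ndufa2, of complex I, had 5.78, 6.88 and 4.97 with LY and 7.46, 7.88 and 8.58 with DMSO. Rpl27, of the large ribosomal subunit, had 8.86, 9.81 and 9.30 with LY and 10.51, 10.77 and 10.73 with DMSO. The arms did not overlap for any of these genes. Over the lists, LY lay below without overlap for 8 of 75 oxidative phosphorylation genes (10.7%) and 9 of 85 ribosomal protein genes (10.6%). These shares were near the 8.64% of all genes. The genes encoded in mitochondria had a median of -0.01 and went in different directions by date (2.11, -0.88 and -0.26). Genes were also sorted by length, taken as the median over all annotated transcripts of a gene, whichever transcript the cells used. Genes of 57 to 643 bases had a median difference of -0.33, -0.26 and -0.28 on dates 1, 2 and 3. Those of 2261 bases or more had 0.00, 0.08 and -0.37. Genes with the shortest such lengths were thus lower than those with the longest on dates 1 and 2 but not on date 3. On date 3 the lowest median was -0.49, for genes of 643.5 to 845 bases.

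Replication genes were lower in 21 of 25 cases (84%, beside 67.2% of all genes, median -0.57), 10 of 25 on every date (40%, beside 22.4%). Without overlap LY lay below for 3 of 25 (12%, beside 8.64%). The median was -0.35 without date 3, -1.06 without date 2, -1.02 without the LY mean of date 2 and -0.24 with detected genes as a covariate. Mcm4 and Mcm6, of the replicative helicase, differed by -1.37 and -1.56. Pcna, the sliding clamp, had 2.14, 4.54 and 3.61 with LY and 5.0, 5.34 and 4.92 with DMSO. Rfc3, a subunit of the clamp loader, is not on this list and is named for its small p. It had 2.78, 3.06 and 1.97 with LY and 5.14, 5.58 and 4.55 with DMSO. Of the mitosis genes 15 of 24 were lower (62.5%, beside 67.2% of all genes) and 4 of 24 on every date (16.7%, beside 22.4%). Their median of -0.25 was 0.20 without the LY mean of date 1 and 0.45 with detected genes as a covariate. Among glycolysis genes 16 of 20 were lower (80%, beside 67.2% of all genes). Their median was -0.36, -0.56 without date 1 and -0.02 with detected genes as a covariate. The isomerase gene Tpi1 had 2.12, 2.99 and 4.41 with LY and 6.04, 6.04 and 5.26 with DMSO.

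The lineage genes Nanog and Gata6 had overlapping arms. Nanog had 2.98, 7.82 and 5.96 with LY and 6.78, 5.61 and 6.42 with DMSO, so LY was far lower on date 1, higher on date 2 and close on date 3. The difference was -0.68 ± 0.93 (SE; limma adjusted p = 0.957), while the mean TPM by date was 87.3, 392 and 83.1 with LY and 128, 63.6 and 109 with DMSO. On that scale too LY was higher on date 2, where 1 cell held 1655 TPM, and lower on dates 1 and 3. The spread between dates was wider with LY (SD 2.44, n = 3) than with DMSO (SD 0.60, n = 3). Nanog reached a TPM of 10 in 2 of 7, 12 of 12 and 4 of 5 LY cells, against 6 of 6, 10 of 11 and 11 of 11 DMSO cells (exact permutation p = 0.4). The mean share differed by -27.4 percentage points with all dates and by -5.45 points without date 1, and by -20.8 and -30.6 points within runs 1 and 2.

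Gata6 had 3.28, 3.54 and 3.87 with LY and 4.14, 4.28 and 3.69 with DMSO, a difference of -0.47 ± 0.55 (limma adjusted p = 0.948). It reached 10 in 3 of 7, 8 of 12 and 2 of 5 LY cells, against 3 of 6, 8 of 11 and 8 of 11 DMSO cells (exact permutation p = 0.2). The cells that held both Nanog and Gata6 were 11 of 24 with LY and 18 of 28 with DMSO. Nanog without Gata6 was found in 7 of 24 LY and 9 of 28 DMSO cells, and Gata6 without Nanog in 2 of 24 LY and 1 of 28 DMSO cells. Neither gene reached 10 in 4 of 24 LY cells, of which 3 came from date 1 and 1 from date 3, and in 0 of 28 DMSO cells, a count that still permits 10.7%.

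**Figure D4:**
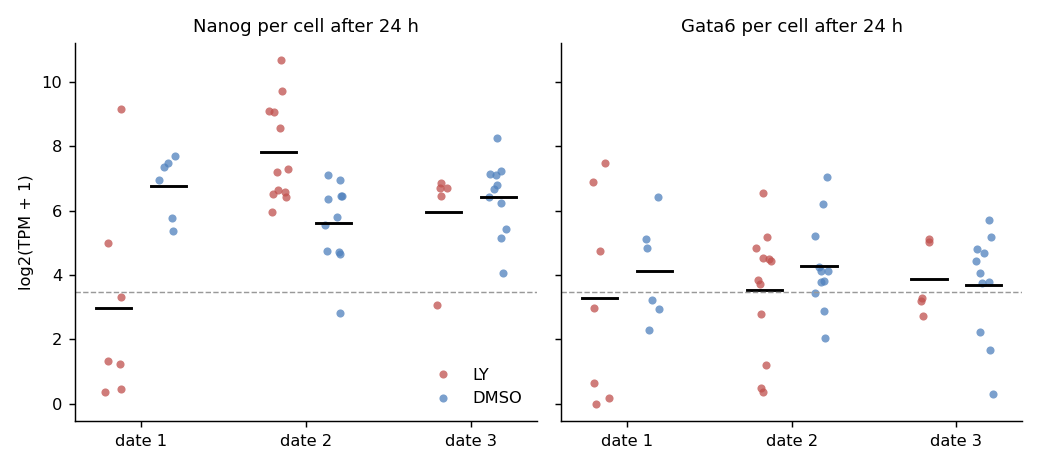
Nanog (left) and Gata6 (right) in single cells as log2(TPM + 1) by collection date, with LY in red left of DMSO in blue; bars are date means and the dashed line is a TPM of 10. Most LY cells of date 1 lie below the line for Nanog, while the 12 LY cells of date 2 lie above it and have a higher mean than the DMSO cells of that date (7.82 against 5.61).

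Epiblast genes, Nanog included, were lower on every date in 11 of 24 cases (45.8%, beside 22.4% of all genes, list median -0.40). Without overlap LY lay below for only 2 of 24 (8.33%, beside 8.64%). The median was -0.21 without the LY mean of date 1 and -0.14 with detected genes as a covariate. Tdgf1, a co-receptor for NODAL, had 0.17, 3.12 and 1.95 with LY and 1.86, 6.15 and 4.69 with DMSO. It was lower by 1.69 to 3.03 on each date, although both arms were low on date 1 and the arms overlapped (-2.49 ± 0.91; limma adjusted p = 0.876). Foxh1, the transcription factor that carries NODAL signals to DNA and is on the NODAL and BMP list, had 0.84, 1.26 and 1.10 with LY and 3.15, 3.0 and 2.87 with DMSO. Fgf4, the ligand with which epiblast drives its neighbours to endoderm, had 0.07, 1.68 and 0.06 with LY and 0.41, 2.68 and 1.99 with DMSO. Sox2 differed by 0.04 and Klf4 by -0.50.

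Among general pluripotency genes 11 of 15 were lower (73.3%, beside 67.2% of all genes, median -0.65). The median was -0.22 without the LY mean of date 1, -0.40 without date 1, -0.43 without the DMSO mean of date 3, -0.36 without date 3 and -0.26 with detected genes as a covariate. Tdh, the mouse threonine dehydrogenase on which embryonic stem cells depend, had 0.88, 2.32 and 3.29 with LY and 4.49, 3.6 and 4.82 with DMSO. Dppa4, a chromatin protein of pluripotent cells, had 2.76, 4.53 and 4.51 with LY and 5.24, 5.71 and 6.26 with DMSO. The arms of both genes did not overlap, and with LY below for 3 of 15 on the list (20%, beside 8.64% of all genes). Pou5f1 had 6.84, 7.26 and 7.80 with LY and 8.22, 7.63 and 8.0 with DMSO.

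Primitive endoderm genes were lower in 24 of 28 cases (median -0.30), yet only 6 of 28 on every date (21.4%, beside 22.4% of all genes). The median was -0.06 without date 3, -0.03 without the DMSO mean of date 3 and -0.13 with detected genes as a covariate. Pdgfra, the receptor that marks endoderm precursors and signals through PI3K, had 0.01, 1.44 and 0.43 with LY and 0.68, 2.44 and 2.67 with DMSO. The basement membrane genes Lamb1, a laminin chain, and Sparc, a collagen-binding protein, differed by -1.94 and -2.18. Sox17 reached a TPM of 10 in 1 of 24 LY and 5 of 28 DMSO cells, and Gata4 in 2 of 24 LY and 5 of 28 DMSO cells. Of the 156 genes higher in fresh E4.0 than E3.25 embryos, 123 were lower with LY (78.8%, beside 67.2% of all genes). Their median was -0.12, against -0.20 for all genes, and 21 were lower on every date (13.5%, beside 22.4%). These genes lay near the floor, with list means of 0.18, 0.33 and 0.25 log2(TPM + 1) with LY and 0.25, 0.43 and 0.67 with DMSO. Of the 28 genes lower at E4.0, 13 were lower with LY.

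Trophectoderm genes had a median of 0.11, below 0 under 8 of 27 settings, with 7 of 16 lower. Fabp3, a fatty acid carrier, was the widest apart, with 0.00, 1.3 and 0.00 with LY and 2.64, 4.09 and 4.11 with DMSO (-3.18 ± 0.89; limma adjusted p = 0.876). It was detected at a TPM of 1 in 4 of 24 LY and 22 of 28 DMSO cells. Krt18 had 2.67, 4.92 and 4.30 with LY and 6.93, 7.15 and 4.45 with DMSO. Cdx2, which specifies the outer layer, differed by 0.29 and reached a TPM of 1 in 5 of 24 LY and 2 of 28 DMSO cells.

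**Figure D5:**
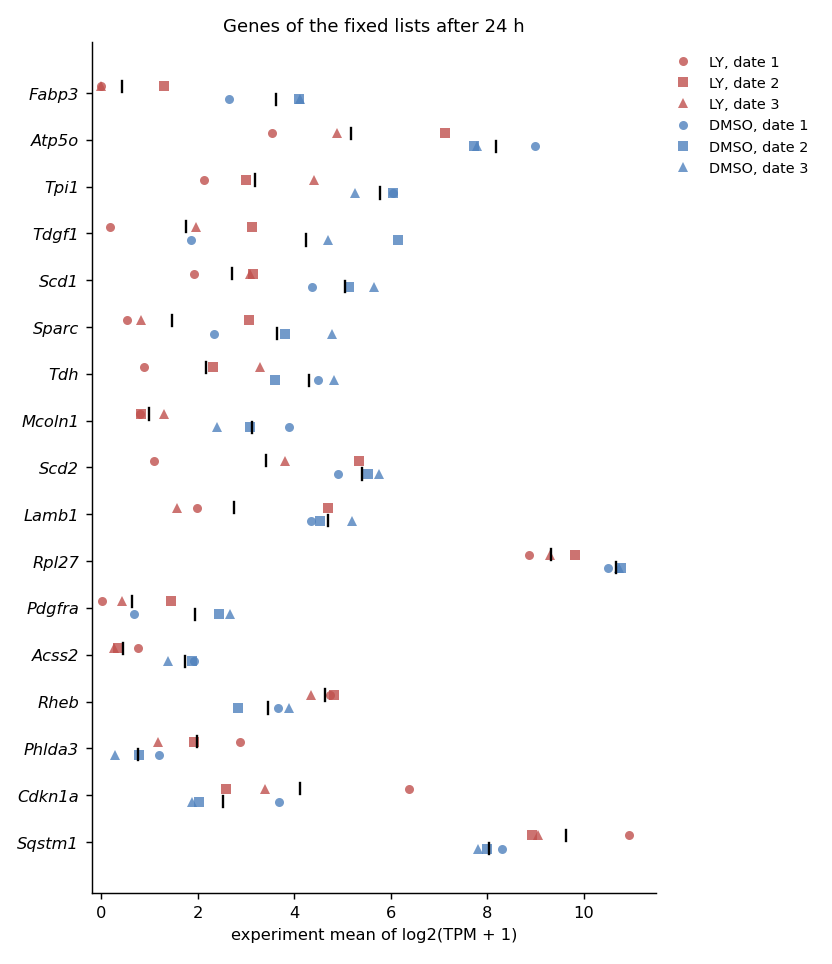
Experiment means of log2(TPM + 1) (horizontal axis) for 17 named genes picked from the lists after their values were seen, with LY in red above DMSO in blue, the symbol giving the date and the bar the mean. Scd1, Fabp3, Atp5o and Rpl27 have all LY points left of all DMSO points, and Sqstm1 and Rheb have them to the right.

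The 10 genes of smallest p in each direction did not pass. The smallest p belonged to Gm49957, also among the genes lower at E4.0 than E3.25, which had 0.00, 0.25 and 0.00 with LY and 1.52, 1.35 and 1.45 with DMSO (limma adjusted p = 0.291); a TPM of 1 was reached in 1 of 24 LY and 13 of 28 DMSO cells. The next was Gm6851, a processed pseudogene whose value is uncertain. Acot13, a mitochondrial thioesterase that acts on long fatty acyl-CoA, had 0.00, 1.36 and 0.00 with LY and 4.36, 4.13 and 2.38 with DMSO. Timm10, a chaperone of protein import into mitochondria, had 0.98, 4.80 and 2.60 with LY and 7.31, 6.87 and 5.83 with DMSO. Its relative Timm10b went the other way, with 5.26, 5.38 and 5.56 with LY and 2.80, 3.41 and 4.11 with DMSO. The further genes among the 10 lowest were Pin4, Rfc3, Atp5md, Cck, Commd4 and the pseudogene Gm5612, with differences from -3.82 to -1.30.

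Among genes higher with LY, Dlg3, a scaffold of cell junctions, had 0.96, 2.25 and 1.13 with LY and 0.03, 0.11 and 0.00 with DMSO. It reached a TPM of 1 in 8 of 24 LY and 0 of 28 DMSO cells. Morc3, a nuclear ATPase, had 2.26, 2.9 and 1.93 with LY and 0.32, 0.54 and 1.25 with DMSO. Mrps15, of the small mitochondrial ribosomal subunit, had 7.67, 6.77 and 8.19 with LY and 4.67, 5.09 and 6.93 with DMSO. The widest gap between arms among genes lower with LY included Emc8, of the membrane protein insertion complex, with 6.20, 6.48 and 5.99 with LY and 8.44, 8.11 and 8.13 with DMSO. Taf12, a subunit of the general transcription factor TFIID, and Mtfr1, which shapes mitochondria, had the converse gap, with differences of 1.62 and 1.34.

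The effect of LY at 24 hours was also set against that at 16 hours. For the difference between both effects 0 of 11692 genes passed in limma (0%; smallest adjusted p = 1; 300 genes at an unadjusted p under 0.05, and 496 with the replicate block). The arms of each time have their own controls and dates, so the times differ in date as well, and time and date cannot be told apart. Scd1, Scd2, Nupr1 and Tdgf1 had like differences at both times, of -2.33, -1.98, -2.98 and -2.49 at 24 hours and -2.25, -2.51, -2.44 and -1.47 at 16 hours. Asns, Trib3 and Psph differed by -2.30, -1.80 and -1.58 at 24 hours and by -0.16, -0.08 and 0.19 at 16 hours. Fasn and Hmgcs1 differed by -0.25 and 0.00 at 24 hours and by -1.98 and -1.42 at 16 hours. Over the amino acid stress list the median was -0.76 at 24 hours and -0.18 at 16 hours, and over the cholesterol list -0.46 and -0.82, beside -0.20 and -0.33 for all genes.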

How the data were processed

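Single inner cells were sequenced by a protocol that copies polyadenylated RNA from its 3′ end, per the labels' protocols. The authors deposited TPM values (length-scaled transcript shares) for 170 cells, each column matching 1 sample title; the labels list 186 samples, of which 16 have no column here and were not analysed here. Named in the submitters' processing notes are build mm10, RSEM 1.3.3, STAR 2.7.9a, cutadapt 2.9 and bcl2fastq 2.20.0, with no annotation named. Because TPM divides by length while reads start at the 3′ end, levels were compared between samples and not between genes. Depth is unknown.

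For each date within an arm, the replicate, log2(TPM + 1) was averaged over cells. Fewer expressing cells and less RNA per cell cannot be told apart in such a mean, and the scale understates changes of low genes. Genes with a TPM of 1 or more in 25% of the cells of any of the 7 groups were kept (11692). The groups are fresh E3.25, E3.75 and E4.0 cells and both arms at 16 and 24 hours. In R 4.3.3, limma 3.58.1 fitted the 18 experiment means together (moderated with a trend, leaving 11 residual degrees of freedom); p-values were adjusted by Benjamini-Hochberg and called at 0.05. The model was run on simulated data without shared dates, with shifts larger than most differences named here. That run does not show how often smaller differences would be found. Both arms carry the same date labels, which pairs them; deviations of same-date means correlated at 0.231, 0.120 and 0.0732 (24 hours) and at 0.393, 0.122 and 0.317 (16 hours). The block fit (7 residual degrees of freedom) was an alternative. Shares used a TPM of 10, with exact Clopper-Pearson 95% intervals and exact permutation tests (scipy 1.17.1); an upper limit for a share of 0 uses 3 counts. Doublets were not called, since cells were picked singly. Gene positions and lengths are from GENCODE (M21), the length being the median over the annotated transcripts of a gene. Of tested genes, 98.7% had a length.

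The members and the 31 gene lists were chosen with earlier results of these data known, so the lists are described by counts and medians beside those of all genes. Named genes are the 10 of smallest p in each direction, a panel of lineage, signalling and lipid genes, up to 4 of smallest p per list, and those with the widest gap between arms or the smallest p for the difference between times; further members of the amino acid stress list are named because the list is described in full, and the genes given as shares of cells beyond the lineage markers, and those in the plot of single genes, were picked after values were seen. Alternatives covered the pseudocount, filter, scaling, groups fitted, replicate block, run, cell weights and omitted dates. Some genes of the panel are not reported here.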

Additional observations from a re-analysis of the deposited data

Results flagged for a closer look

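In the LY cells of date 1, 1 of 7 cells had a spike-in share of 0.0600% of TPM, apart from the others of that date; 9 such checks were made, and chance gives about 1 in 20 per group. Among the 171 named genes, 9 had LY on opposite sides of DMSO on all 3 dates at 24 hours and all 3 dates at 16 hours. Some named genes were chosen for their difference between times, and the share over all genes tested was not counted. In limma the difference between times had an adjusted p of 1 for each of the 9. The 24 hour difference minus the 16 hour difference was 3.32 for Eif5, which starts translation at the AUG codon, 2.60 for Cep120 of the centriole, 2.33 for Lamp2 of the lysosome, 2.29 for the p53 target Ei24, 2.19 for the heat shock cochaperone Dnajb1, 2.16 for Timm10b of mitochondrial import, 1.91 for Mtfr1, and 1.39 for the lipid phosphatase Inppl1, each higher with LY at 24 hours and lower at 16 hours. It was -1.50 for Prob1, lower at 24 hours and higher at 16 hours. Eif5 had 6.98, 7.06 and 7.12 with LY at 24 hours, against 6.27, 5.24 and 5.74 with DMSO; at 16 hours it had 6.32, 5.17 and 3.40 with LY, against 6.42, 7.58 and 6.95 with DMSO.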

How the results depend on the processing

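Of 27 alternatives for LY against DMSO, 25 gave 0 genes, as in the main model, and the date as a random replicate block and the omission of date 3 gave 1 each. The random replicate block called Gm49957 (-1.35; adjusted p = 0.0233), while the fixed replicate block called 0. Leaving out dates or single means gave 0 to 1 genes; the 1 was Gm13577, a processed pseudogene, whose date 3 means were 0.70 with LY and 2.12 with DMSO. For the difference between times all 26 alternatives gave 0 genes. The list of genes separating E4.0 from E3.25 held 184 genes, 352 with no filter, 16 in run 1 only, 316 in run 2 only and 114 with cells of at least 5000 genes, an alternative chosen after seeing the data; omitted means gave 131 to 172. The median of all genes was -0.49 with a pseudocount of 0.1, -0.04 with 10, 0.03 after quantile normalization and 0.04 with detected genes as covariate. Over 27 alternatives the amino acid stress median stayed below 0 (-1.31 to -0.34), as did that of fatty acid synthesis (-1.10 to -0.16) and oxidative phosphorylation (-1.14 to -0.19); the cholesterol median was 0.06 with the covariate. For Sox2, the share of cells was 10.4 points higher with LY, 10.7 lower at a TPM of 1 (-10.7) and 39.6 higher in cells with at least 5000 genes, which left 1 LY cell on date 1; for Sox17 it was -12.4 points, -24.2 at a TPM of 1 and 2.78 at a TPM of 50. The cause was not tested. Omitted dates gave -45.7 to -5.45 points for Nanog, -19.9 to -6.60 for Gata6, 0.216 to 19.2 for Sox2, -18.6 to -9.09 for Sox17, -1383 to -725 detected genes and -2.61 to 0.58 points of mitochondrial RNA.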
